A study of Mus musculus with 9 samples.

Results

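The histone genes were taken as every row whose symbol names a canonical histone of the H1, H2A, H2B, H3 or H4 families or one of the replacement forms H1.0, H1.10, H2A.Z and H3.3 with their relatives, in the current or the older style of symbol. This gave 76 of the 55487 rows. Of these, 66 were clustered genes, 56 on chromosome 13 and 10 on chromosome 3, and 10 were replacement genes placed singly elsewhere. Hist1h2al, counted with chromosome 13, is an annotated pseudogene away from the cluster. RNA was read from gastrocnemius muscle of male C57BL/6 mice, in 3 groups of 3 samples. The series text gives their age as 8 weeks, while the methods give that as the age at purchase, followed by weeks of housing, so that the mice were older when bandaged. Dis was the leg held for 7 days in a thermoplastic bandage, Con was the free leg on the other side of such mice, and NC was muscle of mice left untreated. Both control groups were therefore non-immobilized muscle, but Con came from animals that carried a bandage on the other leg. Which Con and Dis samples came from 1 mouse is not given in the labels. The sources differ on the side that was bound, the methods name tibialis anterior where the labels name gastrocnemius, and the series text gives the same wording for Con and Dis, so groups follow the sample labels. The study's text speaks of 3 mice and compares immobilized with opposite legs, so Con and Dis samples may share mice. The main fit treated them as unpaired. Within Con and within Dis the samples would then come from different animals, and the text does not say so for NC. The p-values therefore measure the spread between these samples.

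A nucleosome wraps DNA around a core of H2A, H2B, H3 and H4, and linker histone H1 binds where the DNA enters and leaves. Clustered histone genes are mostly intronless and are used chiefly in S phase, and most of their mRNAs end in a conserved stem loop in place of a poly(A) tail. Replacement histones are encoded by genes with ordinary polyadenylated mRNAs, are made outside S phase, and take over in cells that no longer divide, such as muscle fibres.

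All 9 samples showed the markers of skeletal muscle fibres, with Acta1, the actin of the thin filament, at 22239 to 44067 TPM (transcripts relative to all transcripts of the sample, corrected for length and scaled to the same total). Dis sample 2 stood apart on the first principal component, which held 40.2% of the variance, at 68.1 against 12.7 and 19.6 in the other Dis samples and at most -7.95 in the controls. The summed level of 11 leukocyte markers was 278 TPM in Dis sample 2 and 34.0 to 84.5 TPM in the other 8 samples, while the T cell marker Cd3e stayed at or below 0.179 TPM. Fibroblast markers were also highest in Dis sample 2, at 708 TPM against 184 to 488 TPM in the other samples. Satellite cell markers summed to 23.3 to 38.6 TPM in Dis and 13.4 to 17.1 TPM in the controls. Sums of erythroid and endothelial markers overlapped between Dis and the controls. Mitochondrially encoded genes held 13.8% of the TPM in Dis sample 2, 19.3% in each of the other Dis samples and 19.6% to 23.4% in the controls. The part of these cell types and of the mitochondrial share in the results was not tested, and the counts of called histone genes were also made without Dis sample 2. In bulk tissue, fewer cells of a type and less RNA per cell cannot be told apart.

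The stem loops that end clustered histone mRNAs are shown here for genes that lead the results and in which the element was found. The replacement class held none. Each line gives the position of the 16-base element in the GRCm38 genome, the strand, and the sequence with the element in capitals and 5 bases of flank on each side.
H1f2, chr13:23739512-23739527, plus: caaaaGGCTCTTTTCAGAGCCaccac
H1f4, chr13:23621782-23621797, minus: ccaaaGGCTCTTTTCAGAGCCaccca
H2ac19, chr3:96239784-96239799, minus: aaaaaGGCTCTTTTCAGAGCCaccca
H2ac18, chr3:96246032-96246047, plus: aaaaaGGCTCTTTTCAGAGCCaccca
H2bc6, chr13:23585531-23585546, minus: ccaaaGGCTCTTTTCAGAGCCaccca
H3c8, chr13:23535889-23535904, plus: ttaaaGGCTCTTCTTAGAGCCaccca
H3c15, chr3:96238485-96238500, minus: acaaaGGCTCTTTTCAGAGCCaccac
H4c8, chr13:23531458-23531473, plus: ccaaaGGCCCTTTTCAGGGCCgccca
H4c9, chr13:22040966-22040981, minus: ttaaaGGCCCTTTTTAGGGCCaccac
All 9 elements lie in the annotated 3' UTR. H2ac18 and H2ac19 carried the same letters over all 26 bases, and the H4 genes had a stem of another composition from the rest. The element, searched by its consensus, was found in 43 of the 66 clustered genes, in 0 of the 10 replacement genes and in 16 of the 55374 other annotated genes (0.0289%). Among clustered genes whose annotated transcript runs 40 or more bases past the stop codon, 43 of 48 held it. The other 18 did not show it. Their models end too early or, in the pseudogenes H2ac14 and Hist1h2al, have no annotated stop codon. None was found in H2bc21 and H2bc4, annotated for 2192 and 742 bases past the stop codon. H2ac10, annotated for 1 base past it, showed none either. The H1f2 transcript is annotated to run 840 bases past the element and that of H2bc6 1861 bases, against 35 bases in H2ac19.

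Promoter windows of 300 bases from RefSeq (GRCm38.p6) were found for 61 of the 76 genes, 51 clustered and 10 replacement. The TATA box (TATAAA) was present on either strand in 58.8% of the clustered windows, in 20% of the replacement windows and in 13.6% of all 32851 windows. The letters CCAAT stood in 88.2%, 60% and 37.4% of them, and the octamer ATTTGCAT, known from H2B promoters, in 23.5%, 10% and 1.74%. Among clustered genes the octamer was found in 6 of 14 H2A and 6 of 12 H2B windows and in 0 of the H1, H3 and H4 windows, and among replacement genes in that of H3f3b. These are matches of letters in a window, and binding was not measured.

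Windows are printed for genes the results turn on, with those motifs in capitals on whichever strand they lie (ATGCAAAT and ATTGG are the octamer and CCAAT read from the other strand). H2ac20 and H2bc21 face away from each other with 238 bases between their starts, so that the H2ac20 window holds the whole stretch between them. H2ac18 and H2ac19 share an unbroken run of 219 bases between their windows, and that of H2ac18 is given. The RefSeq window of H2ac19 lies 98 bases from the gene start in the files and holds CCAAT but not TATAAA. H3f3b is the 1 replacement gene with all of the searched motifs, but its RefSeq window lies within the gene, kilobases away from the gene start in the files.
H2ac20 and H2bc21, chr3:96220831-96221130, minus: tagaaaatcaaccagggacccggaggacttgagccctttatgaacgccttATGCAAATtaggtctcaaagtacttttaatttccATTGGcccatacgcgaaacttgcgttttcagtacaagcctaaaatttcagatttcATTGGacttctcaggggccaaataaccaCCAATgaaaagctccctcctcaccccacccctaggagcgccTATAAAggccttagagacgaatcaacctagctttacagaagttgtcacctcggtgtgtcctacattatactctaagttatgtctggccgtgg
H2ac18, chr3:96245247-96245546, plus: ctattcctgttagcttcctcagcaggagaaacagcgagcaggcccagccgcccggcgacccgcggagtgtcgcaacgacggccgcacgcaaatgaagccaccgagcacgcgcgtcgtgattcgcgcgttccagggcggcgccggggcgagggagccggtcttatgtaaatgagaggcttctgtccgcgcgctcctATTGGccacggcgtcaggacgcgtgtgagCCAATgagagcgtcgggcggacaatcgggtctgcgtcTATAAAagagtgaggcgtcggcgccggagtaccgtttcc
H3f3b, chr11:116024455-116024754, minus: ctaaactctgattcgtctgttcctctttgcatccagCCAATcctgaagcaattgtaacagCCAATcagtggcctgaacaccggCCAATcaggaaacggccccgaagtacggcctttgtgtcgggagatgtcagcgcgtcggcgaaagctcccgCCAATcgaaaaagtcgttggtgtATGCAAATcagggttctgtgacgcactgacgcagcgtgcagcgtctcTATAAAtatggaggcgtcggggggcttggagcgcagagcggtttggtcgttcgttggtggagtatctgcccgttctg

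Most clustered genes read low or 0 in these libraries, and a few carried the signal. The part of mRNA selection and of sequence shared between copies in these low values was not tested. Of the 66 clustered genes, 2 were at 0 in all 9 samples, 20 more stayed below 0.3 TPM in each sample, 7 reached 0.3 TPM in only 1 or 2 samples, and 37 reached 0.3 TPM in 3 samples or more, which was the filter for testing. Over the 9 samples H1f2, a linker histone, held 41.0% of the summed TPM of the class, H2ac19 (H2A) 20.1% and H2bc4 (H2B) 11.7%, and the leading 7 genes together held 88.8%. Of the 10 replacement genes, 7 were tested, and H1f0, H3f3a, H3f3b, H2az1 and H2az2 held 97.3% of that class. The replacement class summed to 309 to 455 TPM per sample and the clustered class to 365 to 586 TPM.

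The summed level of clustered H2A genes was 73.2, 69.9 and 77.7 TPM in Con, 149, 105 and 278 TPM in Dis, and 146, 85.2 and 76.4 TPM in NC. Dis lay above Con in all samples but overlapped NC. Without H2ac18 the sums were 73.2, 69.8 and 77.6 TPM in Con, 114, 105 and 146 TPM in Dis, and 77.4, 85.1 and 76.3 TPM in NC, and Dis no longer overlapped either control. Clustered H2B genes summed to 77.2 to 89.0 TPM in Con, 66.3 to 83.6 TPM in Dis and 78.1 to 82.5 TPM in NC. The corresponding ranges were 13.3 to 17.9, 10.2 to 21.7 and 18.5 to 26.2 TPM for clustered H3, and 32.5 to 44.2, 28.7 to 39.6 and 38.6 to 44.7 TPM for clustered H4. Clustered H1 genes summed to 170 to 177 TPM in Con, 174 to 213 TPM in Dis and 189 to 202 TPM in NC. In H1, H2B, H3 and H4 the Dis samples overlapped both controls.

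**Figure D1:**
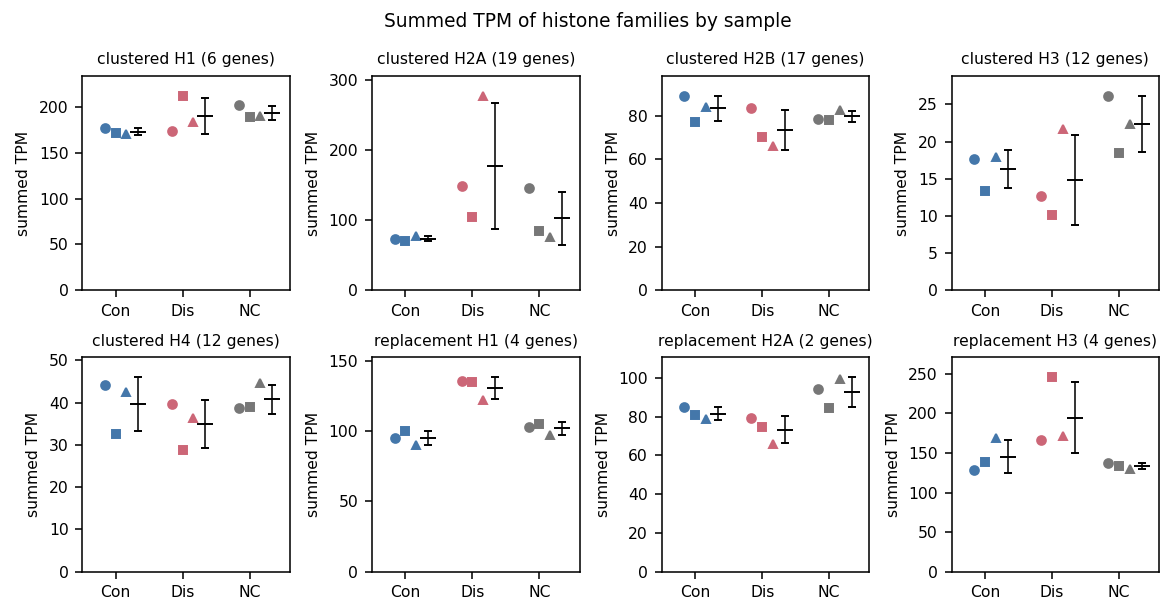
Summed TPM of each histone family (y axes, from 0) in the 3 samples of Con, Dis and NC, with replicate 1 as a circle, 2 as a square and 3 as a triangle, and the mean with SD beside them. Replacement H1 in Dis (122 to 136 TPM) lies above both controls (90.1 to 105 TPM), while the spread of clustered H2A in Dis (105 to 278 TPM) is wide.

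Against Con, 2 clustered genes rose (H2ac19 and H2bc21) and 3 fell (H1f4, H2ac10 and H2bc6), and 32 of the 37 tested did not pass an adjusted p of 0.05. This was 13.5% of those tested, beside 17.2% of all 16140 genes (14.1% higher and 3.08% lower in Dis). Against NC, 2 clustered genes rose (H2ac19 and H2bc21) and 5 fell (H1f4, H2ac10, H3c8, H3c13 and H3c15), 18.9% of those tested beside 16.6% of all genes (13.6% higher and 2.99% lower). The median log2 difference of the tested clustered genes was -0.11 against Con and -0.14 against NC, while that of all genes tested was 0.20 and 0.21. At an unadjusted p below 0.05 there were 8 of 37 against Con and 12 of 37 against NC, beside 33.7% and 34.1% of all genes. The Dis samples lay wholly above those of Con in 5 tested clustered genes and wholly below in 6, beside 30.2% and 6.43% of all genes (36.7% in either direction), and above those of NC in 4 and below in 7, beside 31.3% and 6.71% (38% in either direction). Both comparisons share the Dis samples.

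Because the median of all genes was above 0, the counts were also made after median-ratio scaling, which brought the median of all genes to 0.01 in both comparisons. Clustered genes then had 0 rises and 3 falls against Con and 0 rises and 6 falls against NC, with medians of -0.31 and -0.33, beside 431 rises and 753 falls against Con and 566 rises and 891 falls against NC over all 16140 genes. Quantile normalization gave 1 rise and 3 falls, and 0 rises and 6 falls. Without Dis sample 2 there were 3 rises and 2 falls against Con and 2 rises and 3 falls against NC. Leaving out 1 sample at a time, the count of called clustered genes ranged from 2 to 5 against Con and from 0 to 6 against NC, and the count over all genes from 700 to 2897 and from 836 to 3095, from 2770 and 2676.

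**Figure D2:**
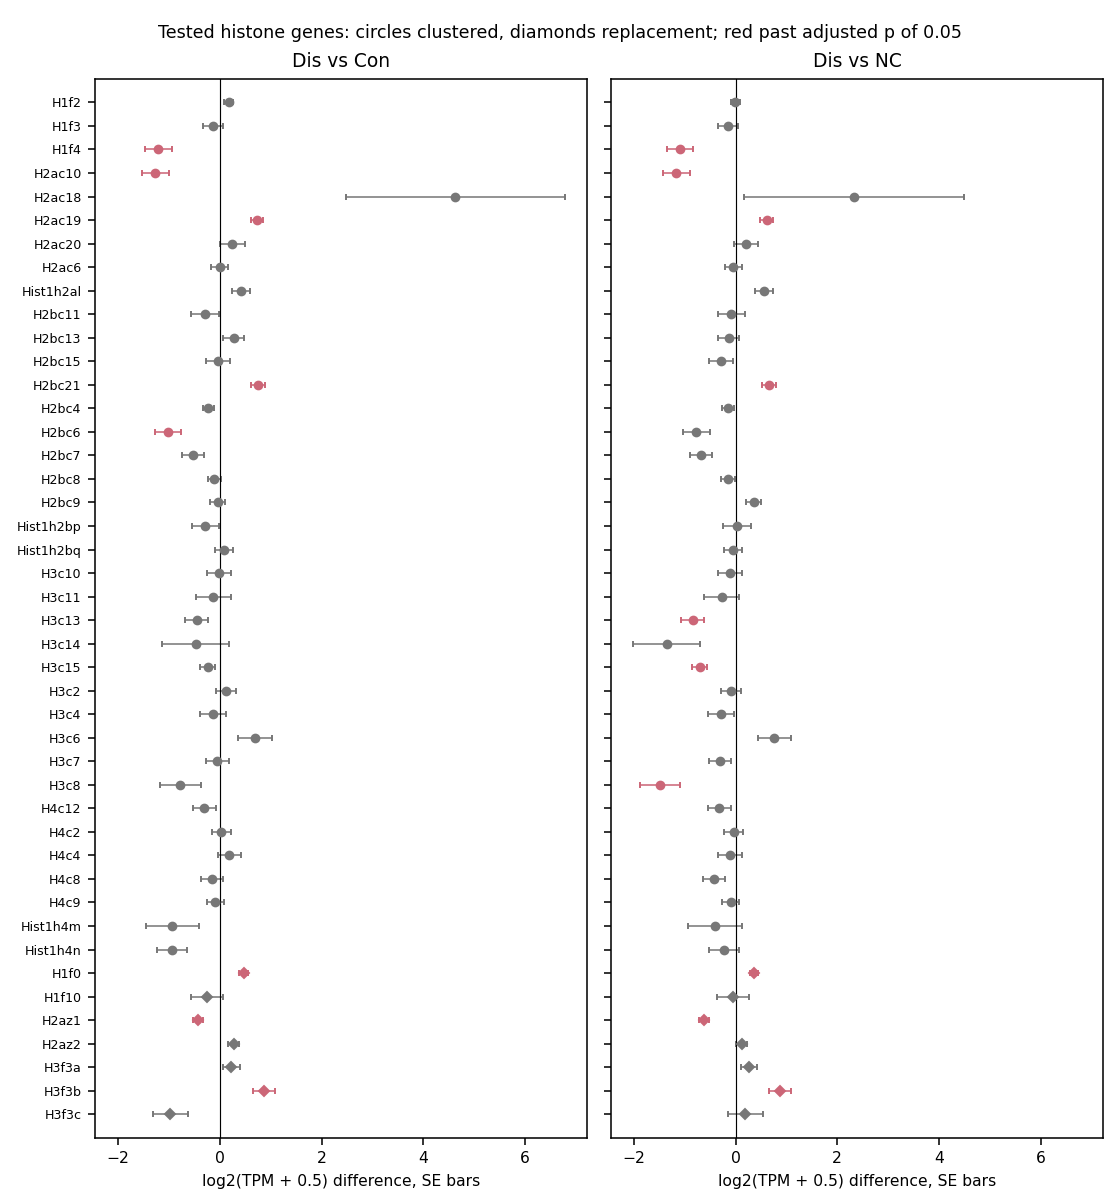
Differences in log2(TPM + 0.5) with SE bars (x axes) for the 44 tested histone genes, Dis against Con and Dis against NC, with clustered genes as circles, replacement genes as diamonds and red marking an adjusted p below 0.05. H1f4, H2ac10 and H2az1 lie left of 0 in red in both panels, H2ac19, H2bc21, H1f0 and H3f3b lie right of it, and H2ac18 has the widest bar.

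Of the 3 tested linker histone genes of the cluster, H1f4 fell in both comparisons, and H1f2 and H1f3 did not pass. H1f2 (H1.2) is the clustered gene with the highest level, at 166, 167 and 163 TPM in Con, 170, 210 and 181 TPM in Dis, and 195, 182 and 183 TPM in NC. Dis did not overlap Con but overlapped NC, and the log2 difference from Con was 0.17 (SE 0.09, adjusted p = 0.215). It turned to -0.05 after median-ratio scaling.

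H1f4 (H1.4) read 10.8, 4.64 and 6.19 TPM in Con, 3.37, 2.26 and 2.46 TPM in Dis, and 5.87, 6.79 and 6.13 TPM in NC. All 3 Dis samples were below all 6 controls, and Con sample 1 was the highest. The fall was -1.21 in log2 against Con (SE 0.26, adjusted p = 0.0174) and -1.10 against NC (SE 0.26, adjusted p = 0.0226). H2bc6 (H2B) lies beside it on the same strand, and its exons overlap those of H1f4, so that reads there can be given to either gene. Each also overlaps Gm11398, and its overlaps with the other gene and with Gm11398 sum to 816 exon bases. H2bc6 read 9.78, 5.73 and 6.23 TPM in Con, 5.10, 2.77 and 2.31 TPM in Dis, and 5.79, 5.70 and 6.06 TPM in NC. Its Dis samples were again below all controls, with log2 differences of -1.02 against Con (SE 0.26, adjusted p = 0.0311) and -0.77 against NC (adjusted p = 0.0748).

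The H1f4 call against Con held without each sample of that comparison in turn and was lost in the fit to those groups alone (adjusted p = 0.0601). Against NC it was lost without Dis sample 2 (0.0502) or 3 (0.051) and without NC sample 1 (0.0679), 2 (0.0744) or 3 (0.067), all adjusted p. For H2bc6 against Con it was lost without Con sample 1 (0.107), 2 (0.0515) or 3 (0.0626) and without Dis sample 2 (0.0619) or 3 (0.0766). Against NC, H2bc6 passed only without Dis sample 1 (0.0146), and the omissions gave an adjusted p of 0.0146 to 0.174.

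H2ac19 and H2ac18 are paired copies of an H2A gene on chromosome 3 that point in opposite directions, 5220 bases apart at their starts. Their coding sequences of 390 bases are identical, and the H2ac19 transcript of 528 bases lies whole within the sequence of the H2ac18 transcript of 586 bases. No stretch of 75 bases belongs to H2ac19 alone, and 57 such stretches belong to H2ac18 alone, so the split of reads between them is uncertain. Antisense transcripts are annotated over both. The methods name a strand-specific library kit, and whether the counting used strand is not given in the sources used here.

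H2ac19 read 69.5, 66.8 and 73.9 TPM in Con, 111, 101 and 142 TPM in Dis, and 74.3, 81.1 and 74.1 TPM in NC. Every Dis sample was above every control. It rose by 0.74 in log2 against Con (SE 0.12, adjusted p = 0.00741) and by 0.61 against NC (SE 0.12, adjusted p = 0.0124), or 1.67-fold and 1.53-fold on the TPM + 0.5 scale. After median-ratio scaling the differences were 0.51 (adjusted p = 0.06) and 0.37 (adjusted p = 0.145), and the call against NC was also lost without NC sample 1 (adjusted p = 0.0541). Without Dis sample 2 the difference from Con was 0.84 (adjusted p = 0.00496).

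H2ac18 read 0.0583, 0.0628 and 0.0718 TPM in Con, 35.0, 0.0878 and 132 TPM in Dis, and 68.8, 0.0583 and 0.0618 TPM in NC. It was therefore high in Dis samples 1 and 3 and in NC sample 1 and near 0 in the other 6. The log2 difference from Con was 4.64 with an SE of 2.16 (adjusted p = 0.164), and from NC 2.33 (adjusted p = 0.470). Leaving out 1 sample at a time gave 3.02 to 6.92 against Con, at an adjusted p of 0.034 to 0.38. Only the fit without Dis sample 2, the Dis sample near 0, passed the threshold (6.92, adjusted p = 0.034).

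Gm20634 is an annotated transcript of 2956 bases that overlaps H2ac18 by 529 bases on the same strand and also contains H3c14, an H3 gene of the same cluster. It read 15.6, 15.3 and 16.8 TPM in Con, 16.8, 22.2 and 1.87 TPM in Dis, and 1.93, 18.7 and 17.6 TPM in NC. Its 2 low samples, Dis 3 and NC 1, were the 2 samples in which H2ac18 was highest. In Dis sample 1, where H2ac18 was also high at 35.0 TPM, Gm20634 was not low, at 16.8 TPM. H3c14 read 1.24 to 1.55 TPM in Con, 0.0116, 0.744 and 3.77 TPM in Dis, and 5.77, 1.75 and 2.70 TPM in NC, and it did not pass the test in either comparison.

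Since TPM divides reads by transcript length, each row was multiplied by its length in kilobases and the rows of the locus were added, which puts them on the scale of reads. H2ac18 plus Gm20634 then gave 46.1, 45.4 and 49.6 in Con, 70.1, 65.6 and 82.8 in Dis, and 46.0, 55.4 and 52.1 in NC. With H2ac19 and H3c14 added, the 4 rows gave 85.6, 82.9 and 91.4 in Con, 129, 121 and 165 in Dis, and 95.8, 101 and 96.1 in NC. The jumps of H2ac18 between samples of a group were not seen in these sums, and Dis lay above both controls in all samples. The sum of the 4 rows, chosen after seeing the data, was 0.66 higher in log2 in Dis than in Con (SE 0.12, adjusted p = 0.00899, limma). It was 0.48 higher in Dis than in NC (adjusted p = 0.023) and differed by -0.17 between Con and NC (adjusted p = 0.904). This sum was not fitted after median-ratio scaling, under which H2ac19 alone lost its calls against Con (adjusted p = 0.06) and NC (adjusted p = 0.145).

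**Figure D3:**
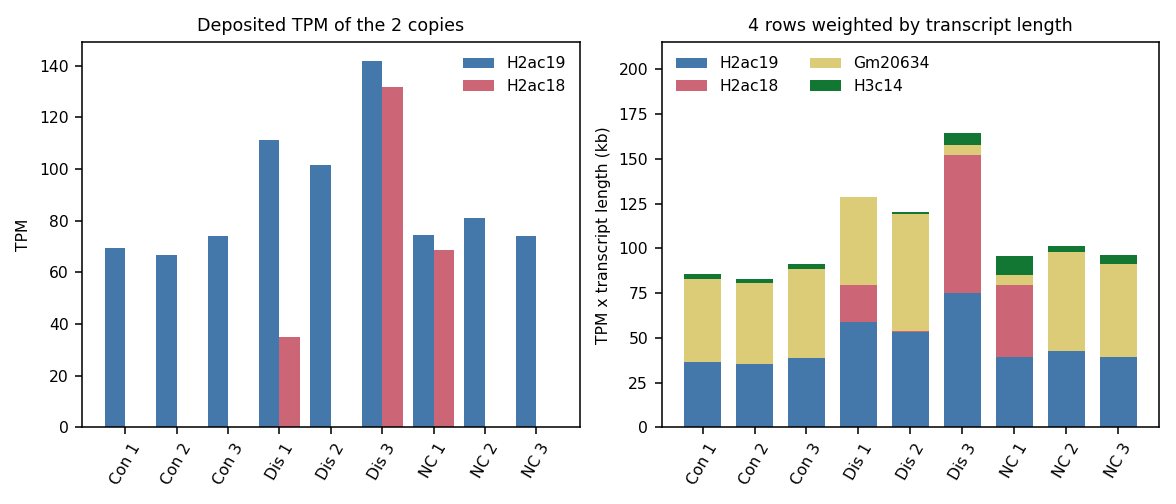
Left, TPM of H2ac19 and H2ac18 in each sample; right, the 4 overlapping or identical rows of the locus as TPM times transcript length in kilobases, stacked, both axes from 0. H2ac18 appears in Dis 1, Dis 3 and NC 1 alone, while the stacks stand at 121 to 165 in Dis and 82.9 to 101 in the controls.

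H2ac10, an H2A gene of the chromosome 13 cluster, was near the floor of the data. It read 1.07, 0.347 and 1.04 TPM in Con, 0.0865, 0 and 0 TPM in Dis, and 0.814, 0.794 and 0.468 TPM in NC. All Dis samples were below all controls, with log2 differences of -1.27 against Con (SE 0.26, adjusted p = 0.0145) and -1.16 against NC (SE 0.26, adjusted p = 0.0183). The call against Con was lost without Con sample 1 (adjusted p = 0.0608) or 3 (adjusted p = 0.052), and that against NC without NC sample 1 (0.0722) or 2 (0.0623). Of its stretches of 75 bases, 70.5% also occur in other H2A genes, and an antisense transcript, Gm44297, overlaps it.

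H2bc21 is an H2B gene on chromosome 3 that shares the printed promoter stretch with H2ac20, and no stretch of 75 bases of it occurs in another gene. It read 4.26, 5.56 and 4.22 TPM in Con, 8.42, 7.24 and 8.88 TPM in Dis, and 4.87, 5.40 and 4.66 TPM in NC. Dis was above both controls in every sample, by 0.75 in log2 against Con (SE 0.14, adjusted p = 0.0110) and 0.66 against NC (SE 0.14, adjusted p = 0.0151). H2ac20, across the shared stretch, averaged 0.307 TPM over all samples and did not pass the test. The H2bc21 differences were 0.54 (adjusted p = 0.0725) and 0.44 (adjusted p = 0.126) after median-ratio scaling. The calls were also lost without Con sample 1 (adjusted p = 0.0511) and without NC sample 1 (0.0598) or 3 (0.0585). Leaving out Dis sample 2 gave rises of 0.83 (adjusted p = 0.0096) and 0.74 (adjusted p = 0.0135).

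The other H2B genes with a signal did not pass the test as deposited. H2bc4, the leading H2B gene, read 50.5 to 57.7 TPM in Con, 40.8 to 54.4 TPM in Dis and 50.01 to 54.6 TPM in NC, with a log2 difference of -0.23 from Con (SE 0.11, adjusted p = 0.188). H2bc8 read 8.99 to 12.5 TPM over all 9 samples. H2bc7, at 0.723 to 0.960 TPM in Dis and 1.36 to 1.85 TPM in NC, differed from NC by -0.69 (adjusted p = 0.0571), and by -0.84 (adjusted p = 0.039) after median-ratio scaling.

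Among the clustered H3 genes, 0 of 10 passed the test against Con and 0 had an unadjusted p below 0.05, beside 17.2% and 33.7% of all genes. Against NC 3 of 10 fell, beside 2.99% of all genes. H3c15 read 4.63, 3.92 and 5.39 TPM in Con, 3.72, 3.62 and 4.21 TPM in Dis, and 7.03, 5.71 and 7.09 TPM in NC. Dis overlapped Con but not NC, and the log2 differences were -0.24 (adjusted p = 0.288) and -0.71 (SE 0.15, adjusted p = 0.0143). Con also lay below NC in all samples, so the NC samples were the high ones.

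H3c13 read 1.32, 1.32 and 1.41 TPM in Con, 0.601, 1.03 and 0.947 TPM in Dis, and 1.68, 1.43 and 2.87 TPM in NC, a difference of -0.85 from NC (SE 0.23, adjusted p = 0.0334). H3c8 read 1.26, 0.141 and 0.242 TPM in Con, 0.0414, 0 and 0.116 TPM in Dis, and 1.97, 0.711 and 0.725 TPM in NC, a difference of -1.49 from NC (SE 0.40, adjusted p = 0.0349). Dis was below both controls in every sample for both genes. For H3c13 Con also lay below NC in all samples. Dis differed from Con by -0.46 for H3c13 (adjusted p = 0.186) and by -0.78 for H3c8 (adjusted p = 0.206).

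Each of these calls against NC was lost when single samples were left out. The H3c15 call was lost without NC sample 1 (adjusted p = 0.0621) or 3 (0.0577). That of H3c13 was lost without Dis sample 1 (0.0714) or 3 (0.0501) and without NC sample 1 (0.0765) or 3 (0.095), and that of H3c8 without any of the 6 samples compared, at an adjusted p of 0.0554 to 0.118. H3c13 is covered by an antisense transcript over all of its 488 bases, and 62.6% of H3c15, 78.5% of H3c13 and 46.1% of H3c8 in stretches of 75 bases also occur in other genes.

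No clustered H4 gene passed the test in either comparison, beside 17.2% and 16.6% of all genes. Of 7 tested, 1 had an unadjusted p below 0.05 against Con and 0 against NC, beside 33.7% and 34.1% of all genes. H4c9 led them at 15.3 to 22.6 TPM in Con, 16.6 to 22.5 TPM in Dis and 18.5 to 22.5 TPM in NC, and H4c8 read 11.7 to 14.7, 7.63 to 16.02 and 15.2 to 16.4 TPM. Hist1h4m was at 4.05 TPM in Con sample 1 and at most 0.940 TPM in the other 8 samples. The 47 histone genes with no value given by the naming rule averaged at most 0.970 TPM, and 15 of them were tested.

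Among the 7 tested replacement genes, H1f0 and H3f3b rose and H2az1 fell in Dis against Con, and the same held against NC. That was 42.9% of so few genes in each comparison, beside 17.2% and 16.6% of all genes. The median log2 difference was 0.23 against Con and 0.19 against NC. After median-ratio scaling the medians were 0.00 and -0.03, with 0 rises and 1 fall against Con and 1 rise and 1 fall against NC. Without Dis sample 2, 2 rises and 1 fall were again called in each.

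H1f0 encodes H1.0, the linker histone known to accumulate in differentiated, non-dividing cells. It read 92.9, 99.3 and 89.0 TPM in Con, 135, 133 and 121 TPM in Dis, and 102, 104 and 96.1 TPM in NC. Every Dis sample was above every control, by 0.47 in log2 against Con (SE 0.08, adjusted p = 0.00926) and 0.36 against NC (SE 0.08, adjusted p = 0.0195). Under median-ratio scaling the differences were 0.24 (adjusted p = 0.174) and 0.12 (adjusted p = 0.499), and under quantile normalization 0.27 (0.0966) and 0.14 (0.382). The call against NC was also lost without NC sample 1 (adjusted p = 0.0696) or 3 (0.0766). The rises with Dis sample 2 left out were 0.45 (adjusted p = 0.0142) and 0.34 (adjusted p = 0.0353).

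H3f3b and H3f3a both encode H3.3, the H3 form that is laid down outside replication. H3f3b read 46.1, 48.5 and 51.2 TPM in Con, 70.6, 134 and 74.0 TPM in Dis, and 50.2, 50.7 and 43.8 TPM in NC. All Dis samples were above all controls, and Dis sample 2, the sample with the high leukocyte sum, was the highest. It rose by 0.86 in log2 against Con (SE 0.21, adjusted p = 0.0255) and by 0.88 against NC (SE 0.21, adjusted p = 0.0236). Without Dis sample 2 the rises were 0.57 (adjusted p = 0.00853) and 0.58 (adjusted p = 0.00761).

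The H3f3b call was lost without Con sample 1 (adjusted p = 0.0868), 2 (0.0709) or 3 (0.0608) and without NC sample 1 (0.0702), 2 (0.0602) or 3 (0.0815). Median-ratio scaling gave 0.64 against Con (adjusted p = 0.055). H3f3a read 70.5, 69.8 and 110 TPM in Con, 89.1, 104 and 93.7 TPM in Dis, and 80.1, 78.2 and 80.7 TPM in NC. Con sample 3 was the highest of all, and the log2 difference from Con was 0.23 (SE 0.16, adjusted p = 0.346). Single omissions gave 0.12 to 0.44 (adjusted p of 0.037 to 0.693), and only the fit without Con sample 3 passed. The coding sequences of H3f3a and H3f3b match at 76.7% of 408 bases.

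H2az1 encodes H2A.Z, the H2A variant found around transcription starts. It read 57.0, 55.4 and 51.3 TPM in Con, 42.4, 40.4 and 38.2 TPM in Dis, and 64.1, 55.1 and 69.1 TPM in NC. Every Dis sample was below every control, by -0.43 in log2 against Con (SE 0.10, adjusted p = 0.0223) and -0.63 against NC (SE 0.10, adjusted p = 0.00615). The fall kept its call under median-ratio scaling and quantile normalization in both comparisons, and against Con it was lost without Con sample 1 (adjusted p = 0.0855) or 2 (0.0694). The differences without Dis sample 2 were -0.43 (adjusted p = 0.0328) and -0.63 (adjusted p = 0.01).

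H2az2 encodes another H2A.Z protein, and its coding sequence matches that of H2az1 at 79.2% of 384 bases. It read 28.2, 25.3 and 27.5 TPM in Con, 36.9, 34.2 and 27.5 TPM in Dis, and 30.1, 29.2 and 30.7 TPM in NC, so that Dis samples 1 and 2 were high and sample 3 was not. The log2 difference from Con was 0.27 (SE 0.11, adjusted p = 0.126). Leaving out 1 sample at a time gave 0.18 to 0.39 (adjusted p of 0.0276 to 0.299), and only the fit without Dis sample 3 passed. The difference from NC was 0.12 (adjusted p = 0.474), and it turned to -0.12 after median-ratio scaling. Whether H2az1 and H2az2 changed unequally was not tested.

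H3f3c is annotated as a processed pseudogene, and 59.9% of its stretches of 75 bases also occur in other genes, H3f3a among them. It read 11.7, 20.3 and 7.44 TPM in Con, 6.32, 7.74 and 4.21 TPM in Dis, and 6.79, 4.09 and 4.84 TPM in NC. Con was the high group, and the difference of Dis from Con was -0.98 (SE 0.34, adjusted p = 0.0786). Single omissions gave -1.32 to -0.62 (adjusted p of 0.0443 to 0.218), and only the fit without Con sample 3 passed. H1f10, a linker histone gene, read 0.638 to 2.24 TPM over the 9 samples, with a difference from Con of -0.25 (adjusted p = 0.598). H1f7, H1f8 and H3f4 were not tested and averaged at most 0.0191 TPM.

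**Figure D4:**
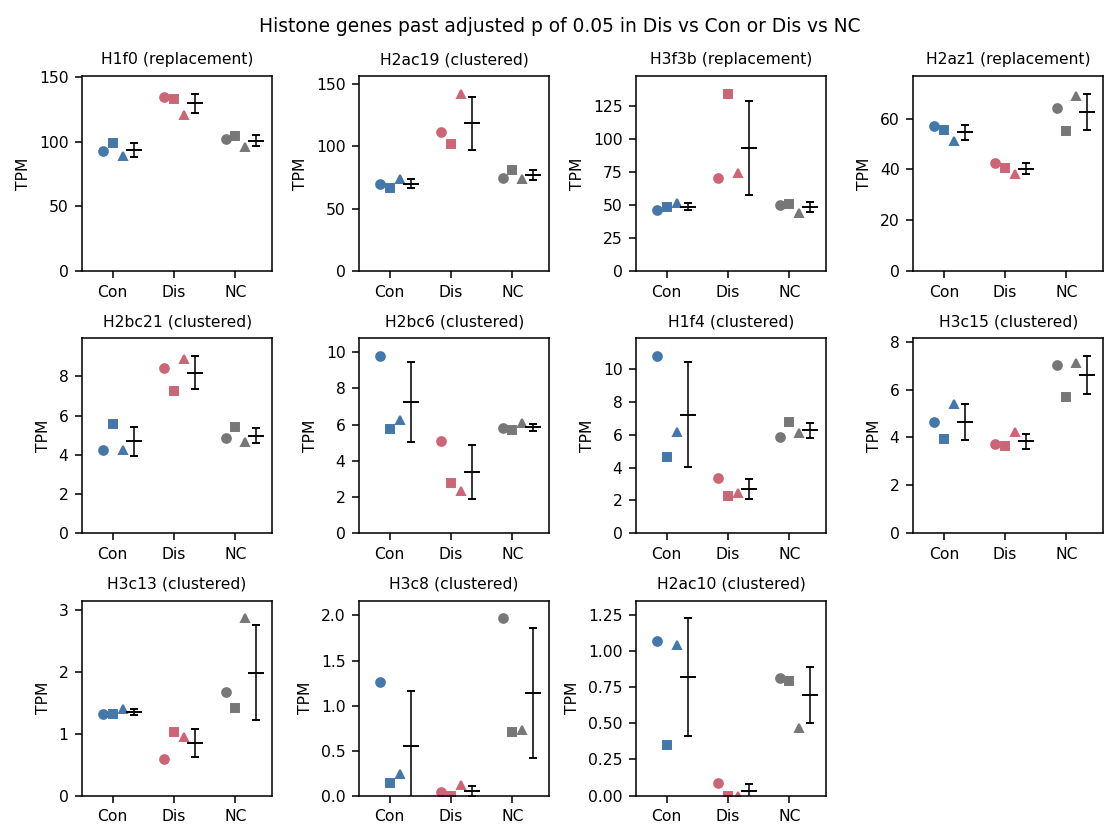
TPM (y axes, from 0) in Con, Dis and NC for the 11 histone genes past an adjusted p of 0.05 in either comparison of Dis, with replicate 1 as a circle, 2 as a square and 3 as a triangle, and the mean with SD beside them (SD bars are cut at 0). In H1f0, H2ac19, H3f3b and H2bc21 all Dis samples are above all controls, and in H2az1, H1f4, H2bc6 and H2ac10 they are below.

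Between Con and NC, the controls, few genes passed the test, but some family sums stood apart. Con lay wholly below NC in clustered H1 (170 to 177 against 189 to 202 TPM). The same held for clustered H3 (13.3 to 17.9 against 18.5 to 26.2 TPM), while the other families overlapped. By limma 0 of 37 clustered and 0 of 7 replacement genes passed the test, with 3 and 1 at an unadjusted p below 0.05, beside 1 of all 16140 genes that passed (0.0062%) and 6.25% at an unadjusted p below 0.05. The median log2 difference of the clustered genes was -0.09, with 25 of 37 below 0, and that of the replacement genes was 0.01. Con lay wholly above NC in 2 tested clustered genes and wholly below in 8, beside 9.54% and 8.11% of all genes (17.6% in either direction). H3c15 (-0.47, adjusted p = 0.545) and H3f3c (1.17, adjusted p = 0.519) did not overlap between Con and NC.

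Genes that carry histones or make their mRNAs were read from lists chosen beside the histone genes. Of 23 tested histone chaperones and related factors, 6 rose and 0 fell against Con, with a median of 0.32, and 8 rose and 0 fell against NC, with a median of 0.35. Over all genes 14.1% and 13.6% rose, with medians of 0.20 and 0.21. Nap1l1, a chaperone of H2A and H2B, was at 31.8 ± 2.27 TPM in Con, 83.0 ± 25.9 TPM in Dis and 32.0 ± 2.44 TPM in NC (SD, n = 3), a rise of 1.33 in log2 against Con (adjusted p = 0.00424, limma). Ipo4, an importin that carries H3 and H4, rose by 0.82 (adjusted p = 0.00559), Chaf1a of the replication-coupled chaperone CAF-1 by 0.66 (adjusted p = 0.0208) and Npm1, nucleophosmin, by 0.60 (adjusted p = 0.0280). After median-ratio scaling the medians were 0.10 and 0.11, with 2 rises and 0 falls against Con and 3 rises and 1 fall against NC. Chaf1a and Npm1 lost their calls against Con under that scaling (adjusted p = 0.0782 and 0.0811), under quantile normalization (0.0786 and 0.0838), without Con sample 1 (0.0846 and 0.0983) or 3 (0.0520 and 0.0558), and Npm1 also without Con sample 2 (0.0754). With Dis sample 2 left out, in which Nap1l1 was highest at 113 TPM against 66.1 and 70.1 TPM, 7 rose against Con and 6 against NC. Leaving out Con samples 1, 2 or 3 left 2, 3 or 4 rises against Con, and leaving out any NC sample left 3 against NC.

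Of 16 tested genes for transcription and 3' end processing of histone mRNA, 2 rose and 0 fell in each comparison, with medians of 0.24 and 0.32. This was 12.5% of them, beside 17.2% and 16.6% of all genes called in either direction, whose medians were 0.20 and 0.21. With Dis sample 2 left out, 4 rose and 0 fell against Con and 2 rose and 1 fell against NC. Dis3l2, a 3' to 5' exonuclease, rose by 0.73 in log2 against Con (adjusted p = 0.00810) and Sympk, symplekin, the scaffold of the cleavage complex, by 0.55 (adjusted p = 0.00661). Slbp, which binds the stem loop, read 4.66 to 6.10 TPM in Con, 4.61, 8.87 and 5.75 TPM in Dis, and 6.19 to 6.34 TPM in NC, with a difference from Con of 0.20 (adjusted p = 0.539). Under median-ratio scaling 2 rose and 0 fell against Con, and 1 rose and 1 fell against NC, where Sympk lost its call (adjusted p = 0.0595).

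Of 25 tested genes of S phase and division, 1 rose (4%) and 0 fell in each comparison, while 14.1% and 13.6% of all genes rose. The list medians were 0.09 and 0.32, beside 0.20 and 0.21 over all genes. The gene called was Cdc45 of the replicative helicase, which rose by 0.63 against Con (adjusted p = 0.0310, limma). Its call was lost under median-ratio scaling (adjusted p = 0.137), without any Con sample (0.0613 to 0.106) and without Dis sample 3 (0.0721), and against NC without Dis sample 2 (0.0559) or 3 (0.0831) and without any NC sample (0.0667 to 0.119). The division markers Mki67 and Top2a read 1.12 and 1.59 TPM in Dis sample 2 and at most 0.483 and 0.713 TPM in the other samples. Outside the symbol rule, 1 of 6 tested variants passed in each comparison, 16.7% beside 17.2% and 16.6% of all genes. It was H2aj, an H2A variant gene, which rose by 0.69 against Con (adjusted p = 0.0371, limma) and 0.90 against NC (adjusted p = 0.0150). The H2aj call against Con was lost after median-ratio scaling (adjusted p = 0.121) and when any single sample other than Dis sample 3 was left out (0.0535 to 0.125), and that against NC without NC sample 2 (0.0550) or 3 (0.0555).

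The labels name an mRNA library kit and the methods a strand-specific RNA kit, and how mRNA was selected is not given in the sources used here. RNAs without a poly(A) tail, for which such a selection would matter as for stem-loop mRNAs, summed to 19.9 to 33.3 TPM in Con, 18.8 to 33.5 TPM in Dis and 27.6 to 33.9 TPM in NC over the 19 found. Of the 5 tested, 0 passed in either comparison of Dis by limma, beside 17.2% and 16.6% of all genes, and 1 and 0 had an unadjusted p below 0.05. Their part in the clustered histone results was not tested.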

How the data were processed

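RNA-seq of 9 samples was analysed from 1 deposited table per sample in TPM. By the submitters' processing notes and the methods, the authors demultiplexed reads with bcl2fastq 2.20, trimmed them with Trimmomatic, aligned them with HISAT2 and quantified genes with StringTie. The build is not given in the sources used here, but the positions of all 76 histone genes, and of 54815 of 55487 gene IDs, equal those of GENCODE M21 (GRCm38). TPM holds no read totals, so depth is unknown and no counting error was computed. A value of exactly 1e-04 TPM, held by 33423 to 34682 rows of each table, was read as 0.

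After removing genes that did not reach 0.3 TPM in 3 or more samples, 16140 genes were fitted in limma 3.58.1 on log2(TPM + 0.5), all 3 groups in 1 fit (R 4.3.3, mean trend, Benjamini-Hochberg over all genes, adjusted p below 0.05). This scale understates changes of low genes. Dis was compared with each control, and Con with NC. Family sums have no test. The script was tested on simulated data. Values are named for histone genes past the threshold, with a mean of at least 1 TPM or with any sample at 5 TPM, and from other lists for up to 4 called genes by size of change, or else 2 by level. Slbp, Acta1, Cd3e, Mki67 and Top2a, also printed, were chosen after their values were seen. The members and lists were chosen with earlier results of these data known. Alternatives were other pseudocounts, filters, scalings, a fit without trend, fits to 2 groups, a replicate block, the threshold form of the study, summed rows, and leaving out each sample.

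Stem loops and transcript overlaps were searched in GENCODE M21 transcripts, and motifs in RefSeq promoter windows (GRCm38.p6). Shared sequence was counted in stretches of 75 bases over annotated transcripts. Protein sequences were not used here.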

Additional observations from a re-analysis of the deposited data

How the results depend on the processing

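Median-ratio scaling, quantile normalization and fits to 2 groups left 1184, 1192 and 848 of all genes called in Dis against Con (2770 as reported) and 1457, 1407 and 1230 against NC (2676). Called clustered genes against Con went from 5 to 3 with median-ratio scaling and to 3 with fits to 2 groups, and against NC from 7 to 4 without a filter. Called replacement genes went from 3 to 1 against Con with median-ratio scaling and to 1 against NC with fits to 2 groups. The study's thresholds, an unadjusted p of at most 0.05 with 4-fold, were applied to the limma fit and gave 0 histone genes. Over all genes they gave 40, 31 and 10 in Dis against Con, Dis against NC and Con against NC. In that fit H2ac18, past 4-fold against both controls, had an unadjusted p above 0.05, and no other tested histone gene reached 4-fold. The fit adds a constant to TPM, which shrinks the fold of low genes. Mean TPM of H2ac10 was 0.817 in Con and 0.0288 in Dis, and that of H3c8 was 1.13 in NC and 0.0526 in Dis. For such low genes the count therefore cannot show whether plain TPM changed 4-fold. The study's own analysis, made with other software, differs, as it lists H2ac18 among the genes higher in Dis than in Con. Mean TPM of H2ac18 was 55.6 in Dis and 0.0643 in Con, and the fit with its added constant gave a log2 difference of 4.64. The study also chose H2ac18 for quantitative PCR, as an up-regulated transcript. It reports a high positive correlation of fold changes between PCR and RNA-seq over the chosen genes. The assay carries the older symbol of H2ac18, Hist2h2aa1. Whether it separates H2ac18 from H2ac19 was not tested. In Con against NC the 1 called gene became 2 without a filter, 7 with fits to 2 groups and 2 with the replicate block.

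Same-numbered samples did not deviate together (correlations of -0.104 to 0.0691 over the 9 pairs), so the numbers were not taken to pair them. The replicate block changed 1 histone call, H2bc6 in Dis against NC, at -0.77 (adjusted p = 0.049). Leaving out 1 sample at a time gave 700 to 2897, 836 to 3095 and 1 to 3 calls over all genes in the 3 comparisons, 2 to 5 and 0 to 6 for clustered genes against Con and NC, and 1 to 4 and 1 to 3 for replacement genes.

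With median-ratio scaling the log2 ratios of summed TPM in Dis against Con and Dis against NC moved to -0.10 and -0.28 for clustered H1, -0.40 and -0.35 for clustered H2B, 0.23 and 0.12 for replacement H1, and -0.38 and -0.58 for replacement H2A. Against NC they moved to -0.45 for clustered H4 and 0.29 for replacement H3. Without H2ac18 the ratio of clustered H2A was 0.73 in Dis against Con and -0.11 in Con against NC.

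Uncalled genes turned direction as follows. Median-ratio scaling gave -0.055 for H1f2 against Con, and against NC -0.12 for H2az2, -0.035 for H3f3c and -0.18 for Gm20634. Quantile normalization gave -0.10, -0.051 and -0.17 for the latter 3. Leaving out single samples spanned, against Con, -0.43 to 0.30 for H3c11, -0.26 to 0.0093 for H4c9, -0.39 to 0.12 for H4c8, -0.42 to 0.14 for H3c4, -1.28 to 0.25 for H3c14 and -0.54 to 0.087 for H1f10, and against NC -0.57 to 0.15 for H3c11, -0.089 to 0.062 for H1f2 and -0.24 to 0.11 for H1f10. TPM without depth sets no limit on which low genes were detectable.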
